A study of Mus musculus with 79 samples.

Results

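The genes described here are 9 of the 20465 gene symbols of a TPM table of mouse Th17 cells, and belong to 3 families of calcium- or sugar-binding proteins. They are the S100 genes S100A4, S100A6, S100A10, S100A11 and S100A13, the galectin genes LGALS1 and LGALS3, and the annexin genes ANXA1 and ANXA2. The set was picked from measured values, after S100A6 and LGALS3 had stood out. The values of S100A6 and LGALS3 are therefore given as a description with no test, and tests were run on the other members.

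Th17 cells, helper T cells that make IL-17, were grown in culture in a pathogenic form (Th17p, with IL1b, IL6 and IL23) or a non-pathogenic form (Th17n, with TGFb and IL6). Each form received EGCG at 20 µM, a green tea catechin, with DMSO as its solvent control, or DHEA at 50 µM, an abbreviation that the labels do not spell out, with methanol as its solvent control. All cells had been stained with the division dye CFSE. RNA was taken from the unsorted culture (Total) and from sorted cells that had divided exactly 1 time (Div.1). This gives 16 groups, each with libraries from 5 mice per the labels, except the DMSO Div.1 groups of Th17p and Th17n, which have 4 libraries here. In all, 78 of 79 libraries were used. Well A4 was not used, because its label names Th17n in a plate row whose other wells are labelled Th17p. The libraries used of each group lay in 1 plate row. Each row held both solvents or both compounds of 1 form and sort. Row thus cannot be told apart from form, from sort, or from compound against solvent. Levels are TPM, transcript abundance scaled for transcript length and library total. TPM gives no read depth, so no counting interval is given, and the number of libraries limits the precision.

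S100 proteins are small EF-hand proteins that change shape on binding calcium and then dock onto partners such as annexins, non-muscle myosin and the ubiquitin ligase adaptor CACYBP. Annexins bind acidic phospholipids in a calcium-dependent way, and ANXA2 forms a complex with S100A10 at the plasma membrane. Galectins bind beta-galactosides on surface glycoproteins, and in T cells LGALS1 and LGALS3 are known for effects on cell death, adhesion and receptor clustering. In T cells several S100 and galectin genes are known to be higher after activation and in memory cells.

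The 78 libraries carried all 8 general T cell markers, with a summed level of 1809.8 to 3094 TPM. The mean of this sum was higher with each compound than with its solvent in every form and sort. In Th17p Total it was 2973 TPM with EGCG, against 2219 TPM with DMSO, and 2904 TPM with DHEA, against 2308 TPM with methanol. In Th17n Total it was 2421 against 1886 TPM with EGCG, and 2501 against 2056 TPM with DHEA. The summed level of 5 Th17 markers differed between compound and solvent groups. With EGCG its mean was 315 TPM in Th17p Total, 431 in Th17p Div.1, 6903 in Th17n Total and 8041 in Th17n Div.1. With DMSO it was 2393, 2254, 7227 and 4053 TPM in that order. With DHEA it was 197, 215, 1026 and 1577 TPM, and with methanol 1695, 1160, 5436 and 3814 TPM. The part of the T cell and Th17 markers in the members' levels was not tested. Macrophage and monocyte markers, cells rich in LGALS3 and S100 transcripts, summed to between 0.0490 and 1.69 TPM over 8 genes, and CD14 in 1 library was the only value of at least 1 TPM. Among neutrophil markers S100A9 was at 0 in all 78 libraries, S100A8 stayed at or below 0.558 TPM, and LY6G, with up to 23.3 TPM, was the only one of 8 to reach 1 TPM. Of 7 fibroblast markers, LUM reached 175 TPM and DCN 5.36 TPM, while COL1A1, COL1A2 and COL3A1 stayed at or below 0.433 TPM. The CD8 T and NK list reached 27.4 TPM through CD8B1, with CD8A at or below 0.557 TPM. In Th17p Total its sum was 16.9 to 23.7 TPM with DHEA, against 7.23 to 10.5 TPM with methanol, and in Th17p Div.1 14.7 to 27.4 TPM with DHEA, against 9.63 to 12.54 TPM with methanol. The sum in Th17n Total was 9.11 to 12.3 TPM with DHEA, against 6.27 to 6.73 TPM with methanol. In Th17n Div.1 it was 11.4 to 13.1 TPM, against 6.61 to 8.98 TPM. With EGCG only the Th17p Total libraries lay apart, at 8.13 to 11.9 TPM, against 4.02 to 7.98 TPM with DMSO. B cell markers summed to 3.38 to 4.45 TPM with DHEA in Th17n Div.1, against 1.17 to 2.24 TPM. Neutrophil markers summed to 0 to 8.85 TPM with EGCG in Th17p Total, against 9.54 to 20.6 TPM. The part of these lists in the members' levels was not tested.

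In the GENCODE annotation of the mm10 build, S100A13, S100A4 and S100A6 lie in a run of 12 S100 genes on chromosome 3 (chr3:90511034-90695721). S100A6 (chr3:90612882-90624181, plus strand) begins 6.84 kb beyond the end of S100A4 (chr3:90603771-90606045, plus strand). S100A5 (chr3:90608523-90611780) lies between them and was below 1 TPM in every library. S100A13 (chr3:90514435-90524581, plus strand) starts 0.043 kb from S100A1, which runs the other way, and S100A3 ends 1.07 kb before S100A4. S100A11 (chr3:93520488-93526287) and S100A10 (chr3:93555080-93564643) lie together 2.82 Mb further along the chromosome. LGALS3 (chr14:47367751-47386160), LGALS1 (chr15:78926725-78930465), ANXA1 (chr19:20373428-20390944, minus strand) and ANXA2 (chr9:69453620-69491795) are each on another chromosome. Reads shared with a neighbour or with a near-identical copy cannot be resolved in a TPM table, and the values of these genes carry that uncertainty.

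Promoter sequences of 300 bases, 250 before and 50 after the transcript start, were taken from RefSeq on build GRCm38.p6 for the 7 members that have an entry. Printed 5′ to 3′ are those of the picked S100A6 and LGALS3, of S100A4 near S100A6, and of S100A11 and ANXA2. S100A11 and ANXA2 rose with both compounds, and all 5 genes are on the plus strand. They lie at chr3:90612644-90612943 (S100A6), chr3:90603520-90603819 (S100A4), chr3:93520246-93520545 (S100A11), chr9:69453433-69453732 (ANXA2) and chr14:47373610-47373909 (LGALS3). Capitals mark matches to the AP-1 letters TGANTCA or the TATA box letters TATAAA.
S100A6: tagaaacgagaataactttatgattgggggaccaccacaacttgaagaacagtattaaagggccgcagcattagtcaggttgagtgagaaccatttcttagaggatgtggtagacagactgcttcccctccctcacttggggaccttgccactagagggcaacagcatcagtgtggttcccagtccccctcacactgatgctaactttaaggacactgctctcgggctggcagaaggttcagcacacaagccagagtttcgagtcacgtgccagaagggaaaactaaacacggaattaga
S100A4: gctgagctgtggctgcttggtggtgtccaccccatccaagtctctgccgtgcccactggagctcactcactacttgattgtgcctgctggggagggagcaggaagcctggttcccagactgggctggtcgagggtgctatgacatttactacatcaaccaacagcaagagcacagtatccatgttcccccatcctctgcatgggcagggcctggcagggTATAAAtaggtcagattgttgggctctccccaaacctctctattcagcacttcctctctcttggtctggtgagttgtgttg
S100A11: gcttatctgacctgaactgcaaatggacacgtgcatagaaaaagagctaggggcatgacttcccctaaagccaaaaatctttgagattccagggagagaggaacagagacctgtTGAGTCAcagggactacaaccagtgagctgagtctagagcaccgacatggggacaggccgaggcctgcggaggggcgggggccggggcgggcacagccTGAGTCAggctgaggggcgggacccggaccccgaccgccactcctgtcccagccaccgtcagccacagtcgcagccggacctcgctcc
ANXA2: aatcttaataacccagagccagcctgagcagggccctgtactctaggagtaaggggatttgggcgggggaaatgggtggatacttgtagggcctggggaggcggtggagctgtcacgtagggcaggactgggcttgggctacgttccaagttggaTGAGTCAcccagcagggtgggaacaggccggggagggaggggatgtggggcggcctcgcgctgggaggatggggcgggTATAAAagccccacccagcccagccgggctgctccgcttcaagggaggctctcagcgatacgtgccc
LGALS3: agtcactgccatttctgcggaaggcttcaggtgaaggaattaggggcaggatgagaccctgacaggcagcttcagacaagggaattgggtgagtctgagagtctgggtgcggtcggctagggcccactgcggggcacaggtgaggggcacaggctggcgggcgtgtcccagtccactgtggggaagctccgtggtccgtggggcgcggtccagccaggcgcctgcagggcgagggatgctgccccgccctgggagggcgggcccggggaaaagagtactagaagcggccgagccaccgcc

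Both strands were searched, and no match to one motif overlapped a match to another. The AP-1 letters occurred 2 times in the S100A11 promoter, 136 and 38 bases before the start, and 1 time in the ANXA2 promoter, 95 bases before the start. They were in 2 of the 7 member promoters and in 7.81% of all 32851 promoters of this length. The TATA letters were in S100A4 (31 bases before the start), ANXA2 (17 bases) and ANXA1 (32 bases), and in 13.6% of all promoters. The Sp1 letters GGGCGG were found in ANXA2, S100A11 and LGALS3 and in 35.7% of all promoters. The core letters of the antioxidant response element, TGACNNNGC, were in 0 of the 7 windows and in 12.4% of all promoters. The S100A6 window held none of the 4 motifs. These matches describe letters in a window only.

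S100A6, also called calcyclin, is a calcium sensor that binds CACYBP. Among the members it had the widest range, with a ratio of 111 between the highest group mean (Th17p with EGCG, Div.1) and the lowest (Th17n with DMSO, Total). In unsorted Th17p cells it had 217, 167, 197, 266 and 209 TPM with EGCG, against 58.6, 55.7, 37.2, 41.9 and 55.6 TPM with DMSO. In Th17p Div.1 cells it had 230.0, 233, 199.7, 265 and 261 TPM with EGCG, against 43.2, 28.3, 31.6 and 40.4 TPM with DMSO. Every EGCG library was above every DMSO library in both sorts, and the ratio of mean TPM was 4.24 in Total and 6.63 in Div.1. With DHEA the direction was the opposite in these cells. Unsorted Th17p cells had 44.4, 42.9, 44.8, 18.1 and 37.3 TPM with DHEA, against 103, 97.8, 109, 72.4 and 108 TPM with methanol. Th17p Div.1 cells had 37.7, 38.97, 46.9, 28.4 and 42.8 TPM with DHEA, against 80.5, 59.6, 69.4, 60.3 and 80.5 TPM with methanol. All DHEA libraries lay below all methanol libraries, and the ratio of means was 0.382 in Total and 0.556 in Div.1. In bulk RNA, fewer cells that express a gene and less of its RNA per cell cannot be told apart.

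In Th17n cells S100A6 was low with solvent and higher with both compounds. Unsorted Th17n cells had 12.8, 20.6, 24.7, 14.5 and 21.4 TPM with EGCG, against 2.42, 1.72, 4.27, 1.17 and 1.13 TPM with DMSO. Sorted Th17n cells had 20.8, 20.5, 26.95, 18.7 and 18.4 TPM with EGCG, against 3.68, 2.41, 1.83 and 1.64 TPM with DMSO. These groups did not overlap, and the mean ratios were 8.77 and 8.83. DHEA gave 18.9, 17.2, 19.5, 11.1 and 17.7 TPM in unsorted Th17n cells, against 2.48, 2.03, 2.24, 2.24 and 2.13 TPM with methanol. It gave 10.8, 14.6, 20.3, 10.1 and 13.8 TPM in sorted Th17n cells, against 4.75, 2.82, 7.68, 3.96 and 3.66 TPM with methanol. Again no DHEA library fell within the methanol range, with mean ratios of 7.59 in Total and 3.05 in Div.1. DHEA thus went with lower S100A6 in the form where solvent levels were high and with higher S100A6 in the form where they were low, and the DHEA means were 37.5 TPM in Th17p and 16.9 TPM in Th17n (Total), a Th17p to Th17n ratio of 2.22, against a ratio of 44.2 with methanol.

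Ordered by mean TPM, the 16 groups of S100A6 fell into steps. The pair of Th17p EGCG groups came first (238 ± 26.6 and 211 ± 36.2 TPM, SD), then the pair of Th17p methanol groups (98.3 ± 15.2 and 70.1 ± 10.3 TPM). The 4 Th17p groups with DMSO or DHEA followed, with means of 35.9 to 49.8 TPM and overlapping libraries. The 4 Th17n groups with a compound came next, at means of 13.9 to 21.1 TPM, and the 4 Th17n solvent groups last, at 2.14 to 4.57 TPM. Neighbouring groups within a step overlapped, and each step was separated from the next by a gap between neighbouring groups. Ranking by the median in place of the mean put 6 groups in another place. The library of Th17p DHEA Total in well column 9, at 18.1 TPM, was the one Th17p library that lay within the range of a Th17n group. Of the fibroblast markers, LUM also separated the forms, and the list of 7 summed to at most 2.13 TPM in any Th17n library. In Th17p Total cells the list summed to 17.7 to 30.96 TPM with DHEA, against 103 to 143 TPM with methanol, and to 104 to 143 TPM with EGCG, against 99.5 to 176 TPM with DMSO. In Th17p Div.1 cells it summed to 22.9 to 40.4 TPM with DHEA, against 37.6 to 68.6 TPM with methanol, and to 122 to 173 TPM with EGCG, against 60.2 to 87.6 TPM with DMSO. Its part in the levels of S100A6 and of S100A4 was not tested.

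LGALS3 is the galectin with a collagen-like tail that lets it cross-link glycans. It had the opposite order between the cell forms, with a higher mean in Th17n cells at each treatment and sort. With EGCG the libraries of the forms overlapped in both sorts, at Th17n to Th17p ratios of means of 1.28 in Total and 1.60 in Div.1. The highest LGALS3 mean was 88.6 ± 21.8 TPM (SD, n = 5) in Th17n with DHEA. The lowest was 3.13 ± 0.798 TPM (SD, n = 5) in Th17p with DMSO, both in unsorted cells. Unsorted Th17p cells had 12.9, 17.3, 12.2, 14.6 and 16.5 TPM with EGCG, against 3.19, 2.92, 1.92, 3.56 and 4.05 TPM with DMSO. Sorted Th17p cells had 13.1, 21.04, 11.5, 11.6 and 16.3 TPM with EGCG, against 3.26, 3.02, 3.26 and 3.56 TPM with DMSO. The EGCG libraries were all above the DMSO libraries in both sorts, and the mean ratios were 4.697 and 4.49. Unsorted Th17p cells had 8.71, 12.97, 11.5, 13.2 and 11.4 TPM with DHEA, against 5.96, 4.53, 6.05, 4.08 and 6.89 TPM with methanol. Sorted Th17p cells had 11.4, 17.6, 10.98, 16.5 and 9.76 TPM with DHEA, against 6.64, 8.697, 5.72, 5.26 and 12.6 TPM with methanol. The unsorted groups did not overlap, while in Div.1 the highest methanol library, at 12.6 TPM, lay inside the DHEA range.

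In Th17n cells LGALS3 was higher with DHEA than in any other group. Unsorted Th17n cells had 125, 70.8, 90.7, 76.9 and 79.3 TPM with DHEA, against 30.9, 38.2, 34.2, 20.3 and 25.7 TPM with methanol. Sorted Th17n cells had 82.3, 52.98, 94.5, 82.6 and 73.1 TPM with DHEA, against 48.6, 49.5, 31.4, 32.05 and 42.8 TPM with methanol. The DHEA libraries were above the methanol libraries in each sort, with mean ratios of 2.97 in Total and 1.89 in Div.1. With EGCG, unsorted Th17n cells had 14.5, 13.4, 15.4, 16.8 and 34.1 TPM, against 8.92, 7.84, 10.7, 7.27 and 11.9 TPM with DMSO. Sorted Th17n cells had 16.4, 18.96, 22.8, 23.3 and 36.1 TPM with EGCG, against 18.7, 16.9, 17.4 and 34.98 TPM with DMSO. The unsorted groups did not overlap and the sorted ones did. The log2 change with EGCG in Th17n Div.1 was 0.11, and it was 0.34 without the DMSO library in well column 4, whose 34.98 TPM stood above the other 3. It was -0.05 without the EGCG library in well column 5. In unsorted Th17n cells the log2 change was 0.87, and 0.65 without the EGCG library in well column 5, which held 34.1 TPM. The pair of Th17n DHEA groups stood above the other 14 groups with no overlap with the next one, and the pair of Th17p DMSO groups stood below the others in the same way. Most groups between them overlapped with a neighbour.

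**Figure D1:**
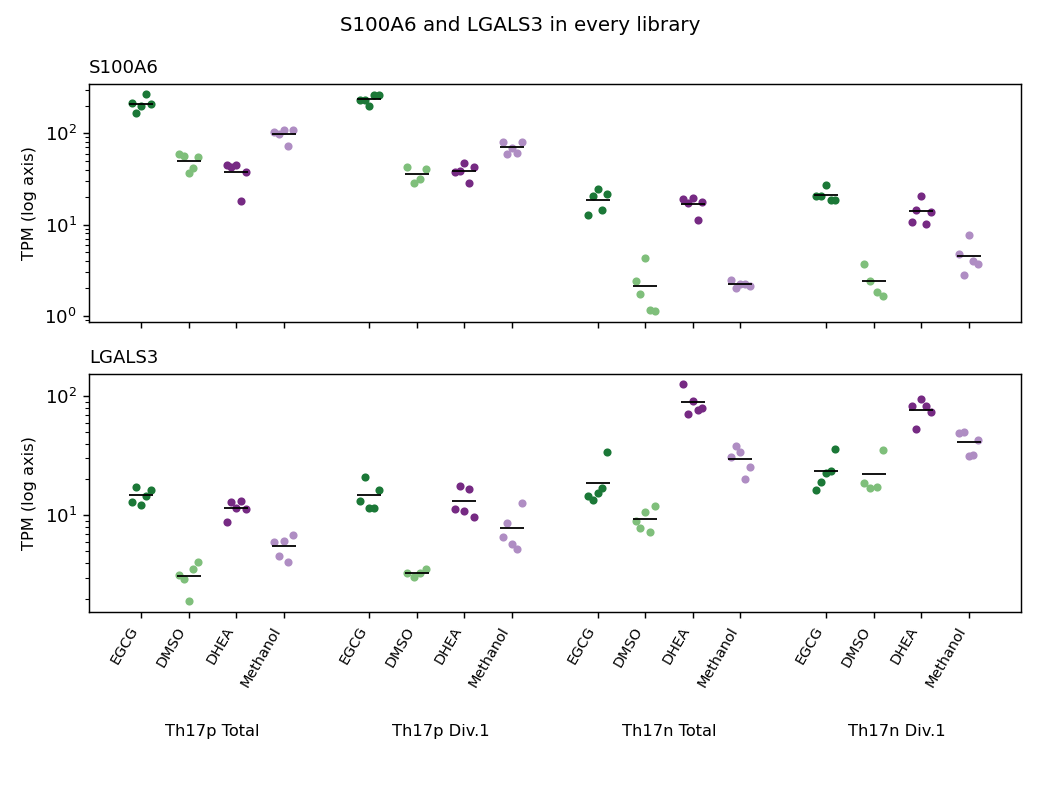
TPM of S100A6 (upper) and LGALS3 (lower) in every library on a log axis, by cell form and sort, with EGCG, DMSO, DHEA and methanol from left to right; each point is a library and the black bar is the group mean. S100A6 with DHEA lay below methanol in Th17p and above methanol in Th17n, while LGALS3 was highest in Th17n with DHEA, at means of 88.6 and 77.1 TPM.

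The other 7 members were S100A4, S100A10, S100A11, S100A13, LGALS1, ANXA1 and ANXA2. A gene was tested where at least 4 libraries reached 1 TPM, which 6 of these 7 did. S100A4 reached it in 60 of 78 libraries and the other 5 in all 78. ANXA1 reached it in 0 libraries. Changes are differences of mean log2(TPM + 1), tested with limma over all 10672 genes kept. A call is an adjusted p under 0.05 after Benjamini-Hochberg adjustment. The shares of all genes without overlapping libraries, or called in several comparisons at once, were not counted. Such counts for a named gene below therefore describe that gene only. With EGCG in Th17p Total cells, 5 of the 6 rose and 1 fell, and 30.1% of all genes rose and 14.9% fell. In Th17p Div.1 cells 5 rose and 0 fell with EGCG, beside 33.7% and 11.9% of all genes. EGCG raised 5 and lowered 0 in Th17n Total cells, where 21.7% of all genes were called higher and 13.5% lower. In Th17n Div.1 cells 5 rose and 0 fell, beside 28.1% higher and 6.77% lower over all genes. The median log2 change of the 6 was 0.54, 0.82, 0.49 and 0.73 with EGCG in Th17p Total, Th17p Div.1, Th17n Total and Th17n Div.1, where the median over all genes was 0.09, 0.12, 0.05 and 0.11. With DHEA in Th17p Total cells, 4 of the 6 rose and 1 fell, beside 20.9% and 26.8% of all genes. In Th17p Div.1 cells the counts with DHEA were 4 higher and 1 lower, beside 18.1% and 19.2%. In Th17n Total cells 4 rose and 1 fell with DHEA, beside 20.8% and 25.3% of all genes. In Th17n Div.1 cells 5 rose and 0 fell with DHEA, beside 22.1% and 14.6%. The counts of falls with either compound are near or below the shares over all genes, and are no result about the members as a set. The median log2 change of the 6 was 0.41, 0.44, 0.49 and 0.43 with DHEA in Th17p Total, Th17p Div.1, Th17n Total and Th17n Div.1, where the median over all genes was -0.02, 0.00, -0.01 and 0.05. Rescaling the libraries by their median ratio moved the all-gene median with EGCG in Div.1 cells to 0.016 in Th17p and -0.0046 in Th17n, against 0.119 and 0.108 as deposited.

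**Figure D2:**
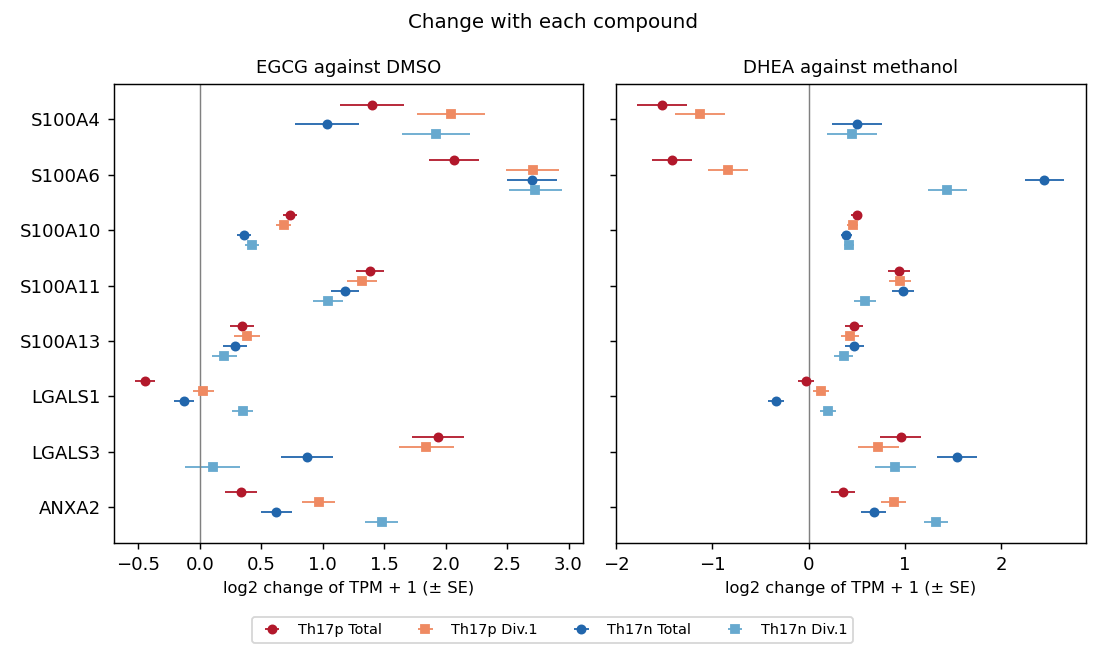
Log2 change of TPM + 1 (± SE) of the 8 members above the low-value limit, with EGCG against DMSO (left) and DHEA against methanol (right), in 4 combinations of cell form and sort. S100A4 and S100A6 are left of 0 with DHEA in Th17p (-1.52 and -1.42 in Total) and right of 0 with EGCG, while S100A10, S100A11 and S100A13 are right of 0 throughout.

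S100A4, known as metastasin, binds the non-muscle myosin heavy chain MYH9 and is known for a role in cell motility. It rose with EGCG in all 4 combinations of form and sort and fell with DHEA in Th17p. Unsorted Th17p cells had 22.8, 18.4, 24.6, 24.3 and 19.3 TPM with EGCG, against 10.8, 5.63, 6.32, 6.18 and 10.4 TPM with DMSO. Sorted Th17p cells had 30.01, 23.7, 19.4, 33.3 and 29.8 TPM with EGCG, against 6.75, 5.902, 5.57 and 4.88 TPM with DMSO. No library overlapped between EGCG and DMSO, and the log2 changes were 1.40 (SE 0.26, adjusted p = 7.46e-06) in Total and 2.04 (SE 0.28, adjusted p = 5.16e-09) in Div.1 by limma. With DHEA, unsorted Th17p cells had 3.35, 7.25, 6.14, 1.78 and 3.09 TPM, against 10.6, 13.3, 15.1, 12.3 and 14.9 TPM with methanol. Sorted Th17p cells had 6.797, 5.47, 3.62, 3.88 and 2.01 TPM with DHEA, against 11.3, 8.43, 12.1, 9.39 and 9.92 TPM with methanol. All DHEA libraries were below all methanol libraries, with log2 changes of -1.52 (SE 0.26, adjusted p = 1.23e-06) and -1.13 (SE 0.26, adjusted p = 3.47e-04).

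In Th17n cells S100A4 was low. EGCG gave 3.58 ± 1.27 TPM in Total and 5.43 ± 1.58 TPM in Div.1 (SD, n = 5), against 1.24 ± 0.689 TPM (n = 5) and 0.801 ± 0.829 TPM (n = 4) with DMSO. The log2 changes were 1.04 (SE 0.26, adjusted p = 0.00116) and 1.92 (SE 0.28, adjusted p = 5.87e-08), and the lowest EGCG library in Total, at 2.431 TPM, lay just above the highest DMSO library, at 2.426 TPM. With DHEA the means were 1.55 ± 0.860 TPM in Total and 1.12 ± 0.988 TPM in Div.1, against 0.730 ± 0.190 and 0.522 ± 0.517 TPM with methanol, and the changes of 0.50 and 0.45 did not pass (adjusted p = 0.111 and 0.183). With a pseudocount of 0.1 in place of 1, the Div.1 change was 1.35 (adjusted p = 0.0291). The DHEA response itself differed between the forms, with a Th17p minus Th17n difference of -2.02 (SE 0.37, adjusted p = 3.72e-05) in Total and -1.57 (SE 0.37, adjusted p = 0.00134) in Div.1. S100A4 was the single tested member with such a difference, beside 14.8% of all genes in Total and 15.9% in Div.1. With well column fitted as a replicate block, LGALS1 also passed in Total, and S100A11 and ANXA2 in Div.1. S100A6, not tested, had log2 changes with DHEA of -1.42 and -0.84 in Th17p and 2.45 and 1.44 in Th17n (Total, Div.1).

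S100A10, the partner of ANXA2 that does not bind calcium, had at least 262 TPM in every library and rose in 8 of 8 compound comparisons. In unsorted Th17p cells it had 479, 517, 496, 522 and 550.1 TPM with EGCG, against 297, 327, 307, 296 and 314 TPM with DMSO. With DHEA these cells had 410.3, 471, 421, 406 and 432 TPM, against 326, 301, 302, 262 and 325 TPM with methanol. Compound and solvent libraries did not overlap in any of the 8 comparisons, and how often this held over all genes was not counted. The log2 changes with EGCG were 0.73 and 0.68 in Th17p (Total, Div.1) and 0.36 and 0.43 in Th17n. With DHEA they were 0.50, 0.46, 0.39 and 0.42 in the same order. The highest of the 8 adjusted p-values was 3.20e-07 (limma). The EGCG response was larger in Th17p than in Th17n, by 0.37 (SE 0.08, adjusted p = 1.94e-04) in Total and 0.25 (SE 0.08, adjusted p = 0.0221) in Div.1. The Div.1 difference no longer passed without the Th17p EGCG library in well column 4 (0.22, adjusted p = 0.0590), the Th17p DMSO library in column 5 (0.23, adjusted p = 0.0597) or the Th17n DMSO library in column 4 (0.24, adjusted p = 0.0509).

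ANXA2, the phospholipid-binding member of that complex, also rose in 8 of 8 compound comparisons, with larger log2 changes in Div.1 than in unsorted cells. In Th17n Div.1 cells it had 171, 185, 181, 155 and 142 TPM with EGCG, against 54.1, 54.9, 75.96 and 53.4 TPM with DMSO. With DHEA these cells had 90.01, 110.1, 93.5, 107 and 108 TPM, against 39.1, 28.9, 39.4, 43.7 and 52.004 TPM with methanol. Neither pair overlapped, and the log2 changes were 1.48 (SE 0.14, adjusted p = 3.23e-14) with EGCG and 1.32 (SE 0.13, adjusted p = 2.57e-13) with DHEA. In unsorted Th17n cells the changes were 0.62 (SE 0.13, adjusted p = 8.63e-05) and 0.67 (SE 0.13, adjusted p = 9.61e-06). In Th17p Div.1 cells they were 0.97 (SE 0.14, adjusted p = 1.38e-08) and 0.88 (SE 0.13, adjusted p = 6.10e-08). Unsorted Th17p cells showed the least, with 172 ± 8.52 TPM with EGCG, against 138 ± 24.98 TPM with DMSO, and 110.3 ± 10.8 TPM with DHEA, against 86.2 ± 10.2 TPM with methanol (SD, n = 5). The libraries overlapped with both compounds. With EGCG the change was 0.34 (SE 0.13, adjusted p = 0.0266). This call was lost without the DMSO library in well column 1 (0.24, adjusted p = 0.133), the DMSO library in column 5 (0.31, adjusted p = 0.0571) or the EGCG library in column 2 (0.31, adjusted p = 0.0631), and on median-ratio rescaling (0.26, adjusted p = 0.0772). With DHEA the change was 0.36 (SE 0.13, adjusted p = 0.0173), and it was lost without the methanol library in column 6 (0.28, adjusted p = 0.0784) or the DHEA library in column 10 (0.32, adjusted p = 0.0505).

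The response in Div.1 cells minus that in unsorted cells was tested as a difference of log2 changes. Such a difference can lie in the compound libraries, in the solvent libraries or in both. In Th17n with EGCG, ANXA2 averaged 164 TPM in Total and 167 TPM in Div.1, against 107 and 59.6 TPM with DMSO. LGALS1 averaged 978 and 960 TPM there, against 1069 and 753 TPM with DMSO. With DHEA in Th17n LGALS1 averaged 863 and 1009 TPM, against 1091 and 876 TPM with methanol. For ANXA2 with EGCG, Div.1 minus Total was 0.86 (SE 0.19, adjusted p = 8.03e-04) in Th17n and 0.63 (SE 0.19, adjusted p = 0.0481) in Th17p, and the Th17p difference lost its call on leaving out any of 14 of 19 libraries (adjusted p up to 0.123). With DHEA it was 0.65 (SE 0.18, adjusted p = 0.0211) in Th17n and 0.53 (SE 0.18, adjusted p = 0.0506) in Th17p, which passed on leaving out any of 5 of 20 libraries (adjusted p down to 0.0204). In the fit without a replicate block, LGALS1 was the other member with such differences. With EGCG its difference was 0.48 (SE 0.12, adjusted p = 0.00368) in Th17n and 0.47 (SE 0.12, adjusted p = 0.0147) in Th17p. With DHEA the LGALS1 difference was 0.54 (SE 0.12, adjusted p = 0.00274) in Th17n. Thus 2 of 6 tested members passed in Th17p and 2 of 6 in Th17n with EGCG, beside 2.57% and 13.3% of all genes. With DHEA 2 of 6 passed in Th17n, beside 6.79%, and 0 of 6 in Th17p by limma (1 at an unadjusted p under 0.05), beside 9.91%. The DHEA difference of ANXA2 in Th17n was lost without the Th17n methanol Div.1 library in well column 7 (0.53, adjusted p = 0.0666) or the Th17n methanol Total library in well column 10 (0.51, adjusted p = 0.0798). The EGCG difference of LGALS1 in Th17p was lost without the Th17p DMSO Div.1 library in well column 3 (0.42, adjusted p = 0.0529), the Th17p DMSO Div.1 library in well column 5 (0.42, adjusted p = 0.0548) or the Th17p EGCG Total library in well column 3 (0.39, adjusted p = 0.0530).

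S100A11, a partner of ANXA1, rose in 8 of 8 compound comparisons. In unsorted Th17p cells it had 130.1, 147, 141, 154 and 157 TPM with EGCG, against 49.5, 58.5, 52.9, 59.4 and 55.7 TPM with DMSO. In the same cells it had 88.01, 96.3, 114, 95.3 and 76.4 TPM with DHEA, against 58.6, 49.99, 59.3, 37.03 and 40.9 TPM with methanol. In Th17n Total cells it had 97.7 ± 10.8 TPM with EGCG, against 42.9 ± 7.19 TPM with DMSO (SD, n = 5). Compound and solvent libraries did not overlap in any comparison. The log2 changes with EGCG were 1.39, 1.32, 1.18 and 1.04 in Th17p Total, Th17p Div.1, Th17n Total and Th17n Div.1. With DHEA they were 0.94, 0.95, 0.98 and 0.59, and the highest adjusted p of the 8 was 3.06e-05. The lowest adjusted p of its 8 differences in response between forms or sorts was 0.122. With well column fitted as a replicate block, its DHEA differences between forms in Div.1 (adjusted p = 0.0495) and between sorts in Th17n (adjusted p = 0.0465) passed in limma.

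S100A13, known for a role in the export of FGF1 and IL1A, changed less and passed in 7 of 8 comparisons, always upward. Unsorted Th17p cells had 47.6, 51.8, 54.1, 54.6 and 62.1 TPM with EGCG, against 44.5, 43.7, 41.1, 38.5 and 43.9 TPM with DMSO. With DHEA they had 51.2, 61.9997, 62.5, 55.1 and 46.4 TPM, against 43.6, 47.4, 41.7, 33.2 and 33.5 TPM with methanol. The EGCG libraries were all above the DMSO libraries, while DHEA and methanol overlapped. Its changes with EGCG were 0.34 (SE 0.10, adjusted p = 0.00298) and 0.38 (adjusted p = 0.00170) in Th17p Total and Div.1. In Th17n they were 0.29 (adjusted p = 0.0173) and 0.20 (adjusted p = 0.131, not called). The Th17n Div.1 change passed in a limma fit on the compared groups alone (adjusted p = 0.0308) and with well A4 in its labelled group (0.34, adjusted p = 0.0124). Well A4 held 38.9 TPM of S100A13, below the 61.7 to 68.99 TPM of the other Th17n DMSO Div.1 libraries. The Th17p DMSO Div.1 libraries held 41.6 to 45.1 TPM. The Th17n Total call was lost without the Th17n DMSO Total library in well column 4 (0.24, adjusted p = 0.0659) or the Th17n EGCG Total library in well column 3 (0.25, adjusted p = 0.0566). On median-ratio rescaling the EGCG changes in Th17n Total and Th17p Div.1 no longer passed (adjusted p = 0.0810 and 0.0675). With DHEA the changes were 0.47, 0.43, 0.47 and 0.36 in Th17p Total, Th17p Div.1, Th17n Total and Th17n Div.1, with adjusted p-values up to 0.00218. In a fit on the compared groups alone the Th17n Div.1 change with DHEA did not pass (adjusted p = 0.0564). Library ranges of compound and solvent overlapped in 3 of the 8 comparisons.

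LGALS1, a dimeric galectin known for inducing T cell death, was the most abundant member per length in Th17n cells, and its response to the compounds had no single direction. It fell with EGCG in unsorted Th17p cells, where it had 301, 292, 219, 314 and 286 TPM with EGCG, against 397, 415, 361, 391 and 352 TPM with DMSO (log2 difference -0.45, SE 0.08, adjusted p = 6.11e-06). It rose with EGCG in Th17n Div.1 cells, where it had 1060.0, 1090.3, 876, 908 and 864 TPM, against 738, 868, 753 and 654 TPM with DMSO (log2 difference 0.35, SE 0.09, adjusted p = 9.98e-04). The first pair did not overlap, and the second overlapped at 868 TPM in the highest DMSO library. After median-ratio rescaling the Th17n Div.1 change was 0.22 (adjusted p = 0.0659). The other EGCG changes, 0.03 in Th17p Div.1 and -0.13 in Th17n Total, did not pass (adjusted p = 0.818 and 0.232). With DHEA it fell in Th17n Total cells, at 863 ± 82.1 TPM against 1091 ± 53.4 TPM with methanol (log2 difference -0.34, SE 0.08, adjusted p = 3.61e-04). In Th17n Div.1 cells it was 0.20 (adjusted p = 0.0464), a call lost on leaving out any of 7 of 10 libraries (adjusted p up to 0.124) and on median-ratio rescaling (adjusted p = 0.147). In Th17p the DHEA changes were -0.03 and 0.13 (adjusted p = 0.783 and 0.227).

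The EGCG response of LGALS1 in unsorted cells differed between the forms, with a Th17p minus Th17n difference of -0.32 (SE 0.12, adjusted p = 0.0411), and this call was lost on leaving out any of 11 of 20 libraries (adjusted p up to 0.155). In Div.1 cells the difference was -0.32 (SE 0.12, adjusted p = 0.0602). With that of S100A10, 2 of the 6 tested members had an EGCG response that differed between forms in Total and 1 in Div.1, beside 19.9% and 17.5% of all genes. The count in Div.1 is near the share over all genes, and is no result about the members as a set. ANXA1, a ligand of formyl peptide receptors, was at 0 in 24 of 78 libraries and at most 0.960 TPM. Its highest group mean was 0.742 TPM in Th17p with EGCG (Total), against 0.339 TPM with DMSO, with overlapping libraries, and it was listed at 0 in every library of Th17n Div.1 with DMSO or methanol.

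**Figure D3:**
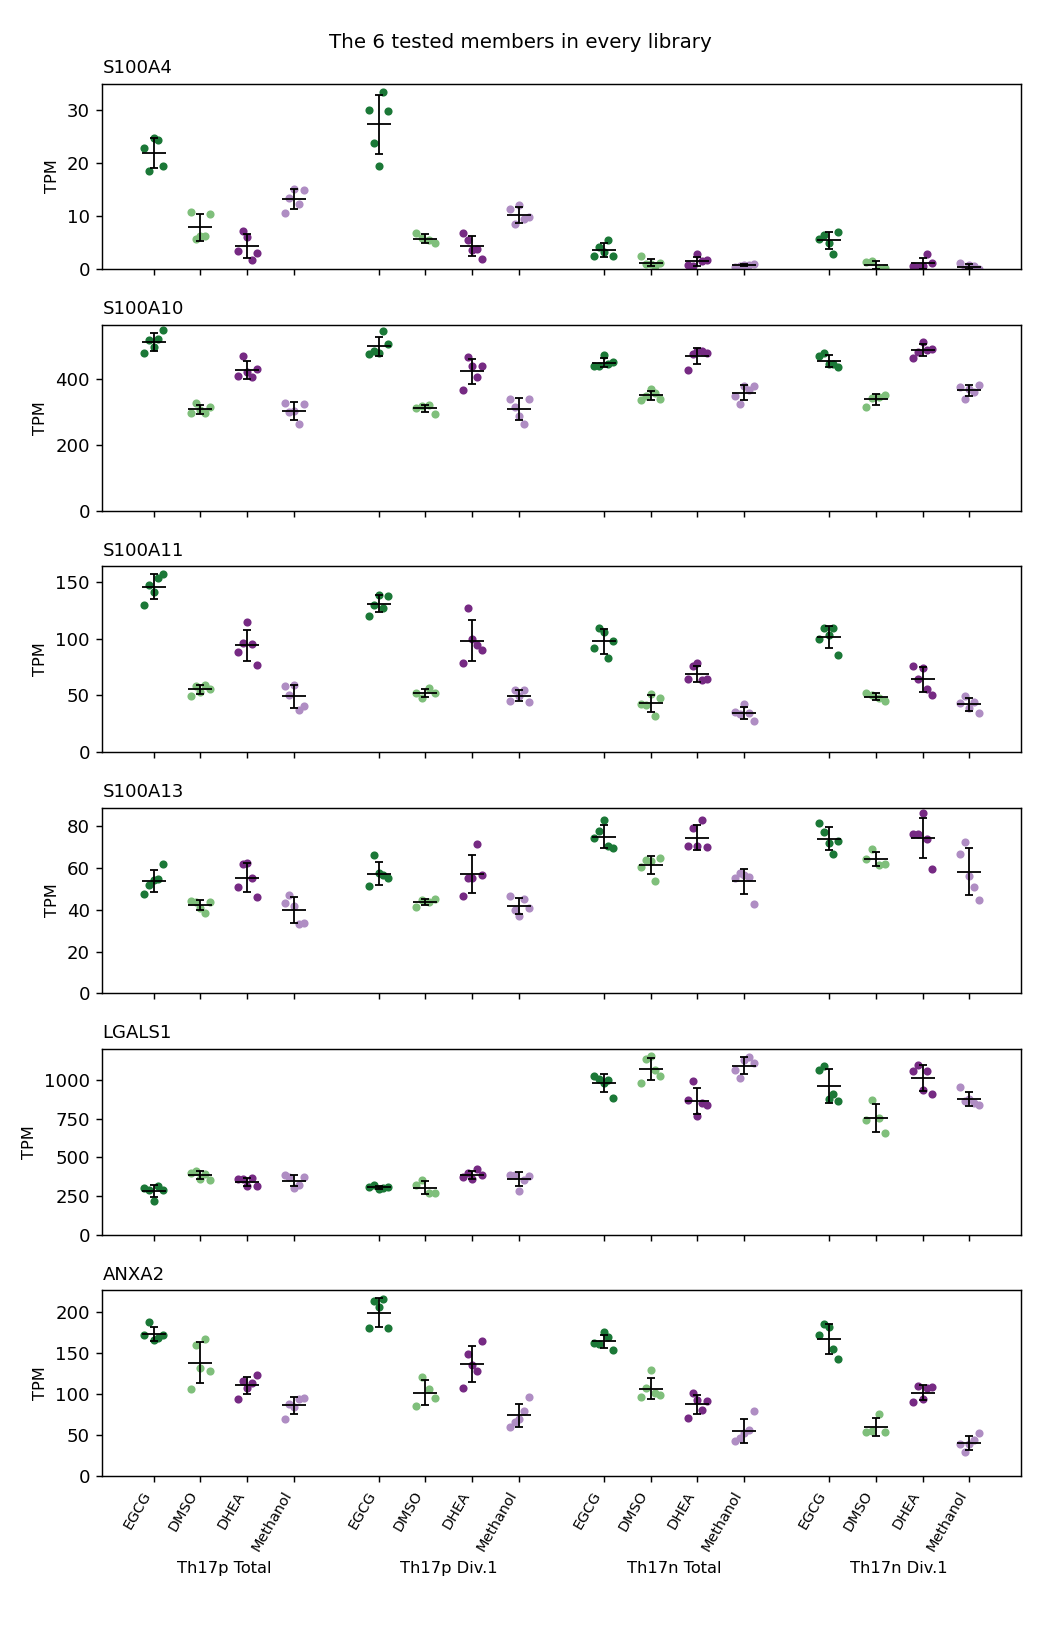
TPM of S100A4, S100A10, S100A11, S100A13, LGALS1 and ANXA2 in every library by cell form and sort, with EGCG, DMSO, DHEA and methanol from left to right; points are libraries, bars the group mean ± SD. LGALS1 is lower in every Th17p group (282 to 388 TPM) than in every Th17n group (753 to 1091 TPM), and S100A4 is the reverse within each treatment.

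The forms were compared over the solvent libraries, which also served as controls of the compounds. The members split between the forms. S100A4 and S100A6 were higher in Th17p and LGALS1 and LGALS3 were higher in Th17n. S100A4 was higher in Th17p by 2.51 (SE 0.18, adjusted p = 1.08e-19) in Total and 2.49 (SE 0.20, adjusted p = 2.84e-18) in Div.1, with methanol means of 13.3 TPM in Th17p and 0.730 TPM in Th17n (Total). LGALS1 was lower in Th17p, with log2 differences of -1.56 (SE 0.06, adjusted p = 2.19e-35) in Total and -1.31 (SE 0.06, adjusted p = 1.70e-29) in Div.1. All Th17p libraries of LGALS1 were below all Th17n libraries at each of the 8 combinations of treatment and sort. ANXA2 was higher in Th17p (log2 difference 0.51, SE 0.09, adjusted p = 1.63e-06 in Total, and log2 difference 0.81, SE 0.10, adjusted p = 2.94e-11 in Div.1). S100A13 was lower (log2 difference -0.48, SE 0.07, adjusted p = 1.30e-08 in Total, and log2 difference -0.50, SE 0.07, adjusted p = 1.96e-08 in Div.1), and so was S100A10 by a small margin (log2 difference -0.21, SE 0.04, adjusted p = 2.04e-06 in Total, and log2 difference -0.18, SE 0.04, adjusted p = 8.01e-05 in Div.1). S100A11 was higher in Total (log2 difference 0.42, SE 0.08, adjusted p = 6.65e-06), and its Div.1 difference of 0.17 was not called (adjusted p = 0.0900), though it was without the Th17n methanol Div.1 library in well column 7 (0.20, adjusted p = 0.0493). Thus 3 rose and 3 fell of 6 in Total, beside 30.9% and 26.5% of all genes, and 2 rose and 3 fell in Div.1, beside 34.9% and 25.7%. The count of rises in Div.1 is near the share over all genes, and is no result about the members as a set. The picked S100A6 had a log2 difference of 4.504 in Total and 3.59 in Div.1, and LGALS3 of -1.78 and -2.33. For S100A6 the Th17p to Th17n ratio of mean TPM (Total) was 23.2 with DMSO and 11.2 with EGCG.

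Of the tested members, ANXA2 was called in both forms, between sorts and between solvents. Over the solvent libraries, ANXA2 was lower in Div.1 than in Total, with log2 differences of -0.33 (SE 0.09, adjusted p = 0.00744) in Th17p and -0.63 (SE 0.09, adjusted p = 5.14e-07) in Th17n. LGALS1 was lower in Div.1 in Th17n (log2 difference -0.41, SE 0.06, adjusted p = 3.30e-07), and S100A11 was higher there (log2 difference 0.23, SE 0.08, adjusted p = 0.0347), a call lost on leaving out any of 8 of 19 libraries (adjusted p up to 0.105). In Th17p the difference of LGALS1 was -0.16 (adjusted p = 0.0521), which passed on leaving out any of 9 of 19 libraries (adjusted p down to 0.0179). In Th17p, 0 of 6 were higher and 1 lower, beside 8.63% and 10.8% of all genes, and in Th17n 1 was higher and 2 lower, beside 5.80% and 16.1%. LGALS3 averaged 22.003 ± 8.68 TPM in Div.1 (n = 4) and 9.34 ± 1.96 TPM in Total (n = 5) in Th17n with DMSO. Methanol and DMSO libraries sat in different well columns, so solvent and column cannot be told apart. ANXA2 was lower with methanol than with DMSO, with log2 differences of -0.56 (SE 0.09, adjusted p = 6.17e-06) in Th17p and -0.75 (SE 0.09, adjusted p = 4.14e-09) in Th17n. S100A4 was higher with methanol in Th17p (log2 difference 0.72, SE 0.19, adjusted p = 0.00496), a call not made with a pseudocount of 0.1 (0.80, adjusted p = 0.142). S100A11 was lower with methanol in Th17n (log2 difference -0.25, SE 0.08, adjusted p = 0.0292), which was lost on leaving out any of 6 of 19 libraries (adjusted p up to 0.0853). The counts were 1 higher and 1 lower of 6 in Th17p, beside 8.44% and 5.14% of all genes, and 0 higher and 2 lower in Th17n, beside 10.1% and 4.26%. The means of S100A6 and LGALS3 were higher with methanol than with DMSO in every form and sort. S100A6 in Th17p Total averaged 98.3 TPM with methanol and 49.8 TPM with DMSO, and LGALS3 in Th17n Total 29.9 TPM with methanol and 9.34 TPM with DMSO. S100A6 in Th17n Total was nearly level, at 2.22 TPM with methanol and 2.14 TPM with DMSO, with overlapping libraries. Elsewhere a change of S100A6 or LGALS3 with DHEA is read against a higher mean solvent level than one with EGCG. A change of ANXA2 with DHEA is read against a lower one. In Total ANXA2 averaged 110 TPM in Th17p and 87.5 TPM in Th17n with DHEA, against 138 and 107 TPM with DMSO.

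The table holds 28 other S100, galectin and annexin genes, of which 14 passed the limit on low values. Of these 14, 4 rose and 1 fell with EGCG in Th17p Total, beside 30.1% and 14.9% of all genes. In Th17p Div.1 8 rose and 0 fell with EGCG (33.7% and 11.9% of all genes), in Th17n Total 7 and 1 (21.7% and 13.5%), and in Th17n Div.1 7 and 1 (28.1% and 6.77%). With DHEA 4 rose and 4 fell in Th17p Total, beside 20.9% and 26.8% of all genes. In Th17p Div.1 2 rose and 2 fell (18.1% and 19.2%), in Th17n Total 6 and 1 (20.8% and 25.3%), and in Th17n Div.1 5 and 0 (22.1% and 14.6%). The rises with EGCG in Th17p Total, the rises with DHEA in Th17p Div.1 and the falls in all comparisons are near or below the shares over all genes. They are no result about these families. Of the 14, S100A2, ANXA9 and LGALS8 reached 1 TPM in 8, 24 and 27 of 78 libraries. S100A3, which lies beside S100A4, also fell with DHEA in Th17p. It averaged 4.42 ± 1.51 TPM with DHEA, against 25.99 ± 4.13 TPM with methanol in Total (log2 difference -2.35, SE 0.22, adjusted p = 2.94e-14), and 4.99 ± 1.52 TPM against 16.2 ± 3.397 TPM in Div.1 (log2 difference -1.53, SE 0.22, adjusted p = 6.13e-08). With EGCG it rose in Th17p Div.1 (1.27) and in Th17n Total and Div.1 (1.61 and 1.002), and its change of 0.14 in Th17p Total did not pass. S100A3 was higher in Th17p by 3.33 in Total and 2.13 in Div.1. S100A1, the neighbour of S100A13, fell with DHEA in Th17p Total (log2 difference -0.50, SE 0.19, adjusted p = 0.0241), and rose with EGCG in Th17p Total and Div.1 and in Th17n Div.1 (0.74, 0.95 and 0.67).

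**Figure D4:**
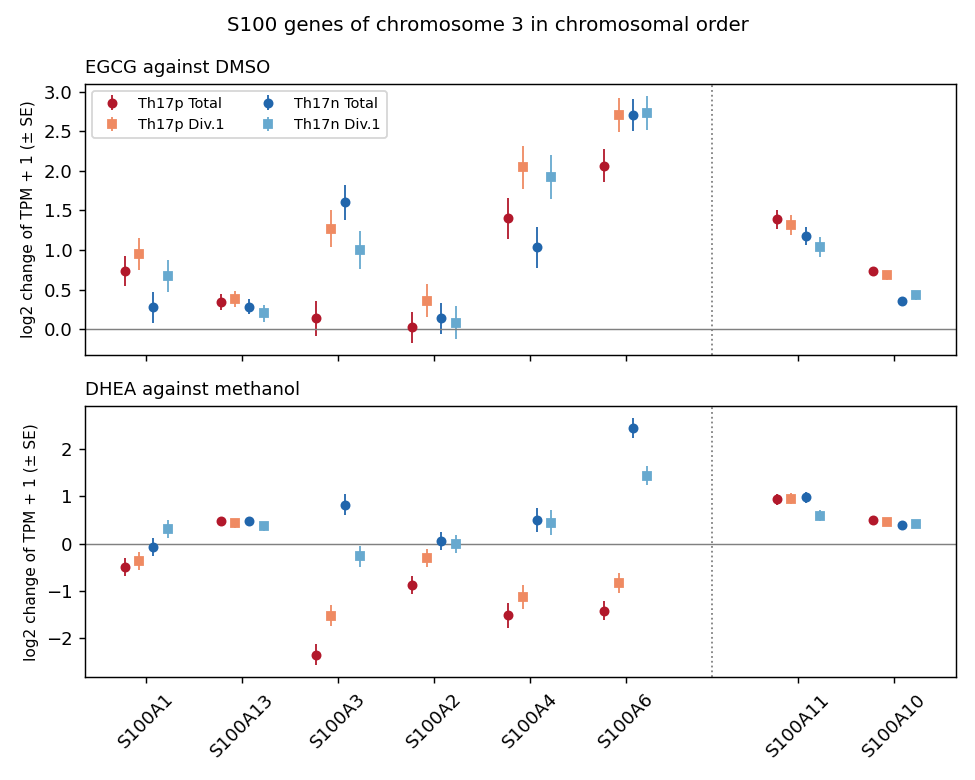
Log2 change of TPM + 1 (± SE) of the S100 genes of chromosome 3 above the low-value limit, in chromosomal order along the axis, with EGCG against DMSO (upper) and DHEA against methanol (lower); the dotted line marks the 2.82 Mb between the clusters. With DHEA in Th17p, S100A3, S100A4 and S100A6 lie below 0 (-2.35, -1.52 and -1.42 in Total), while S100A13, S100A11 and S100A10 lie above 0 (0.47, 0.94 and 0.50). S100A2 is drawn although it reached 1 TPM in only 8 of 78 libraries.

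Among annexins, ANXA5, whose protein binds phosphatidylserine, rose in 8 of 8 compound comparisons by 0.33 to 0.80. In Th17p Total it averaged 149 ± 7.96 TPM with DHEA, against 85.1 ± 7.86 TPM with methanol. ANXA3 was much lower in Th17p, with a Th17p minus Th17n difference of -3.99 in Total, and it fell with EGCG in Th17n (-0.998 in Total and -0.83 in Div.1) and rose with DHEA in Th17p Total (1.07) and Th17n Div.1 (0.57). Among galectins, LGALS9, a ligand of HAVCR2, rose in 7 of 8 comparisons by at most 0.44, and LGALS4 rose in 7 of 8. LGALS7 was higher in Th17p by 1.89 in Total and 2.32 in Div.1.

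Of 24 listed partners and receptors of these proteins, 18 passed the limit, and PLAT, FPR1, FPR2, TLR4, HAVCR2 and DYSF did not. With EGCG, 10 of the 18 rose and 2 fell in Th17p Total, beside 30.1% and 14.9% of all genes. In the same order, the counts with EGCG were 10 and 1 (33.7% and 11.9%) in Th17p Div.1, 9 and 2 (21.7% and 13.5%) in Th17n Total and 11 and 0 (28.1% and 6.77%) in Th17n Div.1. With DHEA they were 5 and 6 (20.9% and 26.8%) in Th17p Total, 7 and 4 (18.1% and 19.2%) in Th17p Div.1, 10 and 5 (20.8% and 25.3%) in Th17n Total and 10 and 3 (22.1% and 14.6%) in Th17n Div.1. The counts with DHEA in Th17p Total, and the counts of falls in all other comparisons, are near or below the shares over all genes. They are no result about the partners. AHNAK, the large scaffold that binds the S100A10 and ANXA2 complex, rose with EGCG in each comparison (0.51, 0.91, 0.49 and 1.17 in Th17p Total, Th17p Div.1, Th17n Total and Th17n Div.1). With DHEA it fell in Th17p Total (-0.37) and rose in the other groups. CACYBP, the binding partner of S100A6, fell in 7 of 8 comparisons, with its lowest change of -0.59 with DHEA in Th17p Total, also where S100A6 was higher. MYH9, the target of S100A4, was called higher in 4 of 8 compound comparisons and lower in 0, with changes of -0.11 to 0.30. ITGB1 had changes of -1.40 to 1.39 (3 called higher, 2 lower). VIM had -0.046 to 1.13 and CRIP1 -0.29 to 1.20, each called higher in 4 comparisons and lower in 0.

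Of the galectin partners, LAG3, an inhibitory receptor that binds LGALS3, rose in 8 of 8 compound comparisons, with the largest change of 2.39 with DHEA in Th17n Total, where LGALS3 was also highest. LAG3 was higher in Th17p than in Th17n (1.68 in Total), the reverse of LGALS3. CD44, a hyaluronan receptor and a glycoprotein bound by LGALS3, rose with EGCG by 0.79 to 1.49 and, with DHEA, fell in Th17p Total (-0.37) and rose in Th17p Div.1, Th17n Total and Th17n Div.1 (0.38, 0.55 and 0.88). MGAT5, which builds the branched N-glycans that galectins prefer, rose with EGCG by 0.32 to 0.86 and was lower in Th17p than in Th17n (-1.27 in Total). LGALS3BP, a secreted binding protein of LGALS3, rose with EGCG in Th17n (1.37 in Total) and fell with DHEA in Th17p (-0.43 in Total).

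Over the 16 group means of log2(TPM + 1), the 5 genes of 8038 with the pattern most like S100A6 were NFKBIA (Pearson r = 0.983), PTGER2 (0.978), IL2 (0.972), ST3GAL1 (0.970) and POMK (0.969). Among the members the value with S100A6 was 0.946 for S100A4 and -0.833 for LGALS1. For LGALS3 the 5 genes were CD37 (0.964), SFXN3 (0.963), DNAJB5 (0.961), CDC42SE1 (0.955) and SEMA7A (0.955), and the value with S100A13 was 0.788. These values describe 16 means that share form, treatment, sort and plate position, and no test was run on them. NFKBIA, the inhibitor of NF-κB, averaged 1159 TPM in Th17p EGCG Div.1, the group where S100A6 was highest, and 307 TPM in Th17n DMSO Total, where S100A6 was lowest. IL2, the T cell growth factor, averaged 5657 and 163 TPM in these groups.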

How the data were processed

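RNA of 79 libraries was measured, and 78 were used. Per the submitters' processing notes, Trimmomatic, kallisto and the mm10 build were used (versions not given in the sources used here). The authors deposited TPM per gene symbol, and columns summed to 880077 to 895017 TPM. The way transcripts were summed to symbols is not given, and depth is unknown. Groups came from the library titles, and columns were matched to libraries by well. The 152 pairs of libraries within groups held 0 identical pairs. The members, lists and tests were chosen with earlier results of these data known. Genes with at least 1 TPM in at least 4 libraries were kept (10672 of 20465), and values were taken as log2(TPM + 1), which understates changes of low genes. A linear model of 16 group means was fitted with limma 3.58.1 (R 4.3.3), with moderation and trend, on 62 residual degrees of freedom. Each of 22 comparisons was a two-sided test adjusted over all genes by Benjamini-Hochberg within that comparison. The fit was tested on simulated data. Genes named were the 9 members, the other family genes and listed partners, and the 5 genes most correlated with S100A6 and LGALS3 over group means, among kept genes whose highest group mean reached 5 TPM. Gene positions come from GENCODE on mm10. Alternatives were a pseudocount of 0.1, no filter, median-ratio rescaling, a fit on the compared groups alone, well column as a replicate block, well A4 in its labelled group, no libraries of well columns 1 and 10, and each library left out.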

Additional observations from a re-analysis of the deposited data

Results flagged for a closer look

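A library stood apart from the others of its group by Dixon's test in 12 of the 142 combinations of member and group with 4 or 5 libraries, where chance gives about 1 in 20. For S100A6 these were libraries with 18.1 TPM in Th17p DHEA Total, 11.1 TPM in Th17n DHEA Total and 26.95 TPM in Th17n EGCG Div.1. For LGALS3 they were 34.1 TPM in Th17n EGCG Total and 34.98 TPM in Th17n DMSO Div.1. S100A4 had 2.43 TPM in a library of Th17n DMSO Total, S100A10 had 428 TPM in Th17n DHEA Total, S100A13 had 42.9 TPM in Th17n methanol Total and ANXA2 had 75.96 TPM in Th17n DMSO Div.1. ANXA1, below the limit on low values, had 0.236 TPM in Th17n EGCG Total, 0.275 TPM in Th17n DMSO Total and 0.807 TPM in Th17p methanol Div.1.

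Of 48 differences of response tested with limma, 11 passed, where 2.57% to 19.9% of all genes passed in the 8 comparisons. The DHEA response of S100A4 was lower in Th17p than in Th17n, with differences of -2.02 (adjusted p = 3.72e-05) in Total and -1.57 (adjusted p = 0.00134) in Div.1 on the log2 scale. The EGCG response of S100A10 was higher in Th17p by 0.37 (adjusted p = 1.94e-04) in Total and 0.25 (adjusted p = 0.0221) in Div.1. That of LGALS1 was lower in Th17p, with a difference of -0.32 (adjusted p = 0.0411) in Total. Between sorts, the EGCG response was higher in Div.1 for LGALS1 by 0.47 (adjusted p = 0.0147) in Th17p and 0.48 (adjusted p = 0.00368) in Th17n, and for ANXA2 by 0.63 (adjusted p = 0.0481) and 0.86 (adjusted p = 8.03e-04). The DHEA response in Th17n was higher in Div.1 for LGALS1 by 0.54 (adjusted p = 0.00274) and for ANXA2 by 0.65 (adjusted p = 0.0211). In each of these comparisons between sorts, the solvent mean of the gene was lower in Div.1 than in Total.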

How the results depend on the processing

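No called change reversed under any alternative, while the untested EGCG change of LGALS3 in Th17n Div.1 went below 0 without 1 library. In the 8 compound and 2 form comparisons the number of members called stayed between 4 and 7 under the 7 alternatives. On leaving out each library it stayed between 4 and 6. The count of 7, with EGCG in Th17p Total and between forms in Total, includes ANXA1. That gene, at most 0.960 TPM, was tested only where no filter was used. Smaller counts moved. Members called between sorts in Th17p went to 2, against 1, in a fit on the compared groups alone and with the replicate block. Methanol against DMSO went to 1, against 2, in Th17p with a pseudocount of 0.1, and in Th17n with no filter, on the groups alone or without well columns 1 and 10. The EGCG form difference went to 1, against 2, in Total with no filter, with well A4 or without columns 1 and 10, and in Div.1 to 2, against 1, on rescaling, on the groups alone or without columns 1 and 10, and to 3 with the block. The EGCG sort difference in Th17p went to 1, against 2, with a pseudocount of 0.1 or no filter and to 0 with well A4. The DHEA form difference in Total went to 2, against 1, on the groups alone or with the block, and in Div.1 to 3 with the block and 2 without columns 1 and 10. The DHEA sort difference went to 1, against 0, in Th17p with the block or without columns 1 and 10, and to 1, against 2, in Th17n on the groups alone or with well A4. The causes were not tested.

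On leaving out each library, the members called ranged from 1 to 2 between sorts in Th17p, 1 to 3 between solvents in Th17n, 1 to 2 and 0 to 3 for the EGCG form difference in Total and Div.1, 0 to 2 for the EGCG sort difference in Th17p, 1 to 2 for the DHEA form difference in each sort, and 0 to 1 and 1 to 2 for the DHEA sort difference in Th17p and Th17n. Calls absent with all libraries appeared on leaving out 1 library in 8 comparisons of single members (for LGALS1 between sorts in Th17p, with any of 9 of 19 libraries left out). For S100A6 and for LGALS3, 6 groups changed place by median, against 0 by mean.

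The well column was also tested as a replicate block, which could not be fitted between the solvents. Same-numbered compound and solvent libraries correlated by -0.00159 to 0.276 in 38 pairs, over 0.1 in 11 and best with their own number in 30. For Div.1 and Total the range was 0.0192 to 0.315 (19 of 38 over 0.1, 32 best with their own number), and for Th17p and Th17n 0.00336 to 0.287 (9 and 27 of 38). The labels tie no number to a mouse and not every pair passed 0.1, so no pairing was used. Most pairs of each kind matched best with their own number, so the data do point to a pairing. The calls of the main fit ignore it, and with the block 8 calls of single members were gained and 0 lost. With the replicate block other differences passed, at -0.16 (adjusted p = 0.0126) for LGALS1 between sorts in Th17p, -0.34 (adjusted p = 0.0103) and -0.54 (adjusted p = 0.00302) for LGALS1 and ANXA2 in the EGCG form difference in Div.1, 0.31 (adjusted p = 0.0137) for LGALS1 in the DHEA form difference in Total, 0.36 (adjusted p = 0.0495) and -0.44 (adjusted p = 0.0114) for S100A11 and ANXA2 in that in Div.1, and 0.53 (adjusted p = 0.00393) for ANXA2 in Th17p and -0.39 (adjusted p = 0.0465) for S100A11 in Th17n in the DHEA sort difference. With well A4 in its labelled group, the EGCG change in Th17n Div.1 was 2.15 for S100A6, against 2.73, and 0.54 for LGALS3, against 0.11. Depth is unknown, so low values such as those of ANXA1 carry an unknown counting error.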

Other observations

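The library of well A4, labelled Th17n DMSO Div.1 and used in no comparison, had 23.6 TPM of S100A6, 6.60 TPM of S100A4, 3.88 TPM of LGALS3, 343 TPM of LGALS1 and 136 TPM of ANXA2. The other 4 libraries with that label ran from 1.64 to 3.68 TPM for S100A6, 0 to 1.59 TPM for S100A4, 16.9 to 34.98 TPM for LGALS3, 654 to 868 TPM for LGALS1 and 53.4 to 75.96 TPM for ANXA2. The 4 libraries in the same plate row labelled Th17p DMSO Div.1 ran from 28.3 to 43.2 TPM for S100A6, 4.88 to 6.75 TPM for S100A4, 3.02 to 3.56 TPM for LGALS3, 269 to 354 TPM for LGALS1 and 84.9 to 121 TPM for ANXA2. Well A4 lay within the second set of ranges for S100A4 and LGALS1 and within neither set for S100A6, LGALS3 and ANXA2.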
